A study of Mus musculus with 16 samples.

Results

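The promoters described here are those of the Zfp genes, the mouse zinc finger protein genes whose symbol is Zfp followed by a number. A promoter was taken as the window of 1 kb on either side of a transcription start site (TSS), with 1 window for each distinct TSS of the curated RefSeq transcripts on mm10 (GRCm38). The annotation held 372 genes with such a symbol, of which 367 were protein coding and 365 had a curated transcript. These 365 genes gave 463 windows, out of 26165 windows of 20923 protein-coding genes. A single window stood for 289 genes, the other 76 genes had up to 4 windows each, and in 60 genes the windows overlapped, so that neighbouring windows could share a peak. Peaks came from chromatin immunoprecipitation followed by sequencing (ChIP-seq) with 6 antibodies in CD8+ T cells from the spleen of OT1 mice, in which a transgene fixes the antigen receptor of the T cells. The cells were stimulated with anti-CD3 and anti-CD28 for 48 h and grown in IL-2 for 3 days. They received either vehicle (Veh) or 0.5 μM GSK2879552 (GSK), which blocks the demethylase LSD1 irreversibly. For every antibody and treatment there was 1 library and 1 peak list, which makes 12 lists.

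Most Zfp proteins carry tandem zinc fingers of the C2H2 type, each of which reads a few bases of DNA. Many of the mouse genes also encode a KRAB box, a short domain near the start of the protein that binds the corepressor Trim28. Trim28 brings in the H3K9 methyltransferase Setdb1 and HP1 proteins, which silence transposons and other targets. KRAB zinc finger genes have multiplied by tandem duplication and lie in clusters of similar sequence. Of the measured proteins and marks, LSD1 demethylates mono- and dimethylated H3K4, H3K4me3 sits at the starts of active or poised genes, H3K27ac marks active promoters and enhancers, and RNA polymerase II (Pol II) transcribes the genes. Proteins translated from the longest curated coding sequence held 3 or more C2H2 fingers in 335 of the 365 genes, with a median of 11 fingers per gene. A KRAB A box pattern was found in 155 genes, which had 179 windows, and was not found in 210 genes with 284 windows.

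The stretches printed next are the 150 bases directly before a TSS, read 5′ to 3′ on the strand of the gene from RefSeq promoters on GRCm38.p6, and each belongs to a window that led a peak class described further on. Of the 463 Zfp windows, 366 windows of 303 genes matched that promoter table. Capitals mark matches, on either strand, to 8 short motifs: CCGGAAG (ETS factors), TGCGCATGC (NRF1), CGCCATNTT (YY1), GGGCGGG (SP and KLF factors), TGACGTCA (CREB), CTCGCGAGA, CTACAATTC (ZNF143) and CCAAT (NFY). Zfp869 had the highest Veh folds of H3K27ac and Pol II, Zfp994 had Pol II in Veh only, Zfp383 had LSD1 in Veh only and Zfp637 had LSD1 in GSK only. Zfp57 had H3K4me2 in Veh only, Zfp759 had H3K4me2 in GSK only, and Zfp868 had H3K27ac in Veh only.
Zfp869 (chr8:69716903-69717052, minus strand): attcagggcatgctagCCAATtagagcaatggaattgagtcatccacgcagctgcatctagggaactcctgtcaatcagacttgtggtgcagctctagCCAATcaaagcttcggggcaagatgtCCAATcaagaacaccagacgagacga
Zfp994 (chr17:22225615-22225764, minus strand): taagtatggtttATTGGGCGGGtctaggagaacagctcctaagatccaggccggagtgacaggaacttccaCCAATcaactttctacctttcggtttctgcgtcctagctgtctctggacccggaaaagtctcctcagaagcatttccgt
Zfp383 (chr7:29908367-29908516, plus strand): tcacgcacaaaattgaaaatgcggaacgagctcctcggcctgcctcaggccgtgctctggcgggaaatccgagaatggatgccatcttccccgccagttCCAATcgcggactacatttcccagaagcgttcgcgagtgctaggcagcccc
Zfp637 (chr6:117841031-117841180, plus strand): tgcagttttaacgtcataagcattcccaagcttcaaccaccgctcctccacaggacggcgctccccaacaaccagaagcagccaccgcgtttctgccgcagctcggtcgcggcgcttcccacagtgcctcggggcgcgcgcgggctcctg
Zfp57 (chr17:37002375-37002524, plus strand): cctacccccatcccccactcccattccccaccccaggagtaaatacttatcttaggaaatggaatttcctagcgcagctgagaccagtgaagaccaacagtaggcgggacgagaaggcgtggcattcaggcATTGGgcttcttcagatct
Zfp759 (chr13:67128078-67128227, plus strand): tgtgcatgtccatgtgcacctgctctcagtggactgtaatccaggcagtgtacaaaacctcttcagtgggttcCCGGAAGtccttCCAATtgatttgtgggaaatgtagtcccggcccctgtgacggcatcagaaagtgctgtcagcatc
Zfp868 (chr8:69625176-69625325, minus strand): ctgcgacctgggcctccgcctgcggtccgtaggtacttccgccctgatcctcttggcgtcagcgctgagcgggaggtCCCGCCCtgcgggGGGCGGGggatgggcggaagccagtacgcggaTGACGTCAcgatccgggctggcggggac
Zfp869 held CCAAT on its own strand at −134, −52 and −26 from the TSS, and Zfp383 held it at −51. In Zfp994 a CCAAT on the opposite strand overlapped GGGCGGG, and another CCAAT began at −79. Zfp759 held CCGGAAG at −77 and CCAAT at −65, and Zfp868 held GGGCGGG on each strand and the palindrome TGACGTCA at −28. No match to the 8 motifs lay in the stretch of Zfp637.

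In a cluster of Zfp genes on chromosome 7, none of which matched the KRAB pattern, 4 of 17 windows held another element, CTACAATTC, which is read here on the opposite strand as GAATTGTAG. These were windows of Zfp180, Zfp108, Zfp93 and Zfp114. The 30 bases around it are shown for 3 of these genes so that the flanks can be compared.
Zfp180 (chr7:24081862-24081891, plus strand): gctgagagttctggGAATTGTAGttccatt
Zfp108 (chr7:24254714-24254743, plus strand): ccgaggcattctggGAATTGTAGttctgga
Zfp93 (chr7:24270334-24270363, plus strand): ctgaggaattctggGAATTGTAGttccaac
The element read in the same direction in all 3. The first base of the match lay at −21 in Zfp180, −66 in Zfp108 and −70 in Zfp93. CTACAATTC was present between 250 bases before and 50 bases after the TSS in 13 of the 463 Zfp windows (2.81%) and in 0.455% of the 25702 windows of other protein-coding genes.

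The lists held from 2751 peaks (GSK H3K27ac) to 40272 peaks (GSK H3K4me1). With 1 library in each group there was no spread between replicates, so no test was made and no p-value is given. Ranges in brackets are Wilson 95% intervals of a share, or Newcombe 95% intervals of a difference between the shares of separate sets of windows. Ranges of a net change between treatments were made otherwise. The number of windows marked in a single treatment was held fixed, and only their split between Veh and GSK was given Wilson 95% limits. Such a range is conditional on that number and is not an ordinary interval of a difference between shares. All ranges cover counting error only. Neighbouring windows are not independent, and the ranges say nothing of the variation between cultures or mice. By the read pairs listed in a supplement of the study, the Veh library was the deeper for H3K27ac, by far the most unequal pair, and for H3K4me2 and LSD1, and the GSK library was the deeper for Pol II, H3K4me1 and H3K4me3. For H3K27ac, H3K4me2 and H3K4me1 the deeper library also had more marked Zfp windows, and for LSD1 and Pol II it had fewer. The part of depth in these differences was not tested. The LSD1 and Pol II lists reached down to a −log10 p of 3.00, whereas the histone lists began at a −log10 q of 3.01, so shares of different antibodies rest on different thresholds. As a check of the cells, the promoters of the T cell genes Cd3e, Cd8a and Cd8b1 had an H3K4me3 peak in both treatments (3 of 3 genes), and those of Cd79a, Lyz2, Csf1r, Ncr1 and Klrb1c had none in either.

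With the windows and lists as given, Zfp promoters had a peak more often than other protein-coding promoters in each of the 12 lists. For Veh H3K4me1 the difference was 8.26 points (3.86 to 12.8), but −0.177 points (−3.61 to 3.74) with peaks of a −log10 q of at least 5 and 0.0669 points (−3.48 to 4.07) with windows of 500 bp on either side. For Veh H3K27ac it was 6.05 points (2.1 to 10.3), and 3.61 points (−0.704 to 8.40) with 1 value per gene. In Veh, 377 of the 463 windows had an H3K4me3 peak and 286 had H3K4me2. LSD1 was present at 256 windows, Pol II at 212, H3K4me1 at 185 and H3K27ac at 131. The share without a peak in any list was 13.4% (62 windows, 10.6 to 16.8) for Zfp promoters and 36.3% for the others. The median Zfp window was in 7 lists and the median other window in 5. At the other end, 20 windows of 15 Zfp genes were in 11 lists, and 0 of 463 were in all 12, which allows a share of up to 0.823%. Among other promoters 0.494% were in all 12 lists.

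**Figure D1:**
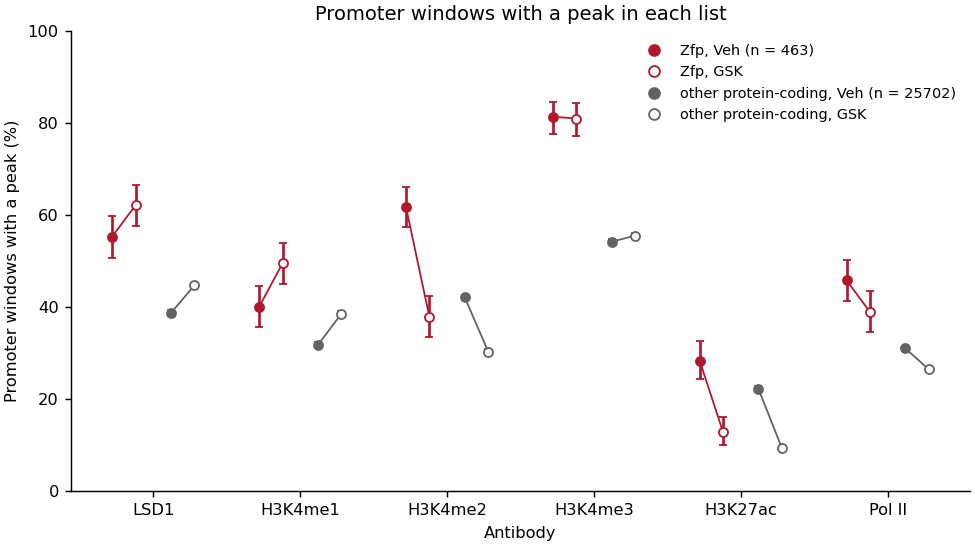
Share of promoter windows with a peak in each of the 12 lists, in percent, for Zfp windows (red, n = 463) and other protein-coding windows (grey, n = 25702), with filled points for Veh, open points for GSK and Wilson 95% bars. Zfp shares lie above the others in each list, most of all for H3K4me3 at 81.4% against 54.2% in Veh.

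H3K4me3 was the most frequent mark and differed least between the lists. It was found at 377 Zfp windows in Veh and 375 in GSK, or 81.4% and 81.0%, where other promoters had 54.2% and 55.5%. The Zfp share was higher than the other share by 27.2 percentage points (23.4 to 30.6) in Veh. Both treatments marked 370 windows of 299 genes. The 7 windows with H3K4me3 in Veh only made 1.51% of the Zfp windows, against 0.319% of the others, and the 5 in GSK only made 1.08%, against 1.60%. The net change was −0.432 points (−1.59 to 0.936). The Veh-only windows belonged to 5 genes. Zfp57, which protects imprinted DNA methylation, had H3K4me3 at fold 4.18 at 3 of its 4 windows in Veh and at none in GSK, and the same windows had H3K4me2 at fold 7.15 in Veh only. Zfp105 had fold 4.72 in Veh and none in GSK. Zfp97 had fold 5.78 in Veh only, in a window where 1.38% of the 50-mers occurred once in the genome. Zfp239 had a broad peak of fold 10.6 in Veh that reached its upstream window, and its downstream window had fold 10.6 in Veh and 11.1 in GSK, so the gene kept the mark. In GSK only, Zfp641 had fold 4.92, Zfp704 had 4.76, Zfp108 had 4.75 and Zfp711 had 4.04. The highest Veh folds were those of Zfp329 (12.1 in Veh, 12 in GSK) and Zfp606 (12.1 and 11).

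LSD1 was found at 256 Zfp windows in Veh and 288 in GSK, which is 55.3% (50.7 to 59.8) and 62.2% (57.7 to 66.5). Other promoters had 38.7% and 44.7%. The Veh difference was 16.6 points (12 to 21.1), and with peaks of a −log10 q of at least 5 it was 3.91 points. LSD1 was in both lists at 210 windows, in Veh only at 46 (9.94%, against 4.79% of other promoters) and in GSK only at 78 (16.8%, against 10.8%). Thus more windows had an LSD1 peak with the inhibitor than without, by 6.91 points (2.21 to 11.2) for Zfp promoters and 5.99 points for the others. Of the Veh LSD1 windows, 82% (76.9 to 86.2) kept a peak in GSK, against 87.6% elsewhere, a difference of −5.59 points (−10.8 to −1.32). Among windows with 90% or more unique 50-mers that difference was −4.12 points (−9.51 to 0.172). Ranked by −log10 p, the leading Veh-only windows were those of Zfp383, at fold 9.52, and Zfp239, at 6.10. The leading GSK-only windows were those of Zfp637, at fold 6.60, and Zfp40, at 7.14. Zfp664, whose promoter faces that of Ccdc92, had the highest Veh fold of all, 9.98, and 9.23 in GSK. H3K4me3 stood at nearly all windows with LSD1 in a single list, 44 of the 46 Veh-only and 71 of the 78 GSK-only windows having it in both treatments (95.7% and 91.0%). Other promoters with LSD1 in a single list had it at 82.5% and 85.9%. LSD1 without H3K4me3 was rare in Veh, at 6 windows (1.30%), against 1.78% of other promoters.

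H3K4me2 had the largest net change of any antibody with the lists as given. It was found at 286 windows in Veh and 175 in GSK, or 61.8% and 37.8%, where other promoters had 42.1% and 30.3%. Both lists had it at 164 windows, Veh alone at 122 (26.3%, against 13.8%) and GSK alone at 11 (2.38%, against 2.06%). The net change was −24.0 points (−26.0 to −20.6) for Zfp promoters and −11.8 points for the others. The whole H3K4me2 list was also shorter in GSK, with 9437 peaks against 15219, and with both lists cut to the same length by −log10 p the net change of the Zfp windows was −2.16 points. The share of Veh-marked windows that kept H3K4me2 was 57.3% (51.6 to 62.9) for Zfp promoters and 67.1% for the others. The difference was −9.79 points (−15.6 to −4.12). With lists of equal length the kept share of Zfp promoters was 70.8% (63.9 to 76.9). The difference from the others was then −8.26 points (−15.2 to −2.11), in the same direction. The Zfp excess over other promoters was 19.7 points (15.1 to 24.0) in Veh and 7.48 points (3.15 to 12) in GSK. Zfp870 had a Veh-only fold of 6.91 beside the 7.15 of Zfp57. The 11 GSK-only windows belonged to 10 genes, led by Zfp759 (fold 6.05) and Zfp455 (fold 6.0), both in the Zfp cluster of chromosome 13. The highest Veh folds were those of Zfp239, 8.33 in Veh and 6.46 in GSK, and Zfp2, 7.71 and 5.75. Of the 122 windows with H3K4me2 in Veh only, 116 (95.1%) had H3K4me3 in both treatments, against 90.6% of such windows of other genes. LSD1 was in both lists at 59 of these 122 windows, in Veh only at 19 and in GSK only at 25. Among the 3556 such windows of other genes the counts were 1890, 298 and 651, so that in both sets LSD1 was more often in GSK only than in Veh only.

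H3K4me1, the other substrate of LSD1, was the more frequent in GSK. It was found at 185 windows in Veh and 229 in GSK, or 40.0% and 49.5%, and at 31.7% and 38.5% of other promoters. It was in both lists at 162 windows, in Veh only at 23 (4.97%, against 3.74%) and in GSK only at 67 (14.5%, against 10.6%). The net change was 9.50 points (5.66 to 12.6), against 6.81 points elsewhere. The GSK list was longer, with 40272 peaks against 34387, and with both cut to the same length the net change was −0.216 points. By −log10 p, Zfp148 and Zfp146 had the leading Veh-only peaks, at folds of 3.79 and 4.84. Zfp935, with 65.7% unique 50-mers, and Zfp712 had the leading GSK-only peaks, at 5.87 and 5.24. The highest Veh folds were those of Zfp105 (6.70, and 7.17 in GSK) and Zfp791 (6.58 and 6.77). Zfp105 thus kept H3K4me1 while its H3K4me2, 6.85 in Veh, and its H3K4me3 were absent from the GSK lists.

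H3K27ac was found at 131 windows in Veh and 59 in GSK, or 28.3% and 12.7%, and at 22.2% and 9.26% of other promoters. The Veh library was by far the deeper. H3K27ac was in both lists at 54 windows, in Veh only at 77 (16.6%, against 13.4%) and in GSK only at 5 (1.08%, against 0.370%). The net change was −15.6 points (−16.8 to −12.9) for Zfp promoters and −13.0 points for the others. The whole list held 7410 peaks in Veh and 2751 in GSK, and with lists of equal length the net change was −0.864 points. The kept share was 41.2% at Zfp promoters and 39.9% elsewhere, a difference of 1.28 points (−6.88 to 9.93). By −log10 p the leading Veh-only peaks were those of Zfp868, at fold 7.64, and Zfp661, at 7.00, where the promoter faces that of Mrps5. All 5 GSK-only windows, those of Zfp688 (6.85), Zfp369 (6.46), Zfp658 (5.95), Zfp160 (5.51) and Zfp764 (5.12), were of KRAB genes. The highest Veh folds were those of Zfp869, 9.30 in Veh and 8.40 in GSK, and Zfp414, 7.93 and 8.96.

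Pol II was found at 212 windows in Veh and 180 in GSK, or 45.8% and 38.9%, and at 31.0% and 26.4% of other promoters. It was in both lists at 159 windows, in Veh only at 53 (11.4%, against 7.79%) and in GSK only at 21 (4.54%, against 3.11%). The net change was −6.91 points (−9.79 to −3.35), against −4.68 points elsewhere, although the whole Pol II lists were of nearly equal length (15638 and 15401 peaks). The kept shares were 75% and 74.9%, a difference of 0.110 points (−6.20 to 5.54). Zfp568, a KRAB gene that represses a placental Igf2 transcript, had Pol II at fold 7.59 in Veh only, and Zfp994 had 7.46 in Veh only, in a window with 69.0% unique 50-mers. By −log10 p, Zfp326 (5.07) and Zfp507 (3.94) led the GSK-only windows. The highest Veh folds were those of Zfp869, 12.4 in Veh and 9.72 in GSK, and Zfp809, 10.6 and 8.42. H3K4me3 without Pol II or H3K27ac in Veh was seen at 158 Zfp windows (34.1%) and at 20.7% of other promoters. These shares are over all windows, and Zfp windows had H3K4me3 more often. Among windows with H3K4me3 in Veh the counts were 158 of 377 for Zfp promoters and 5327 of 13932 for the others.

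**Figure D2:**
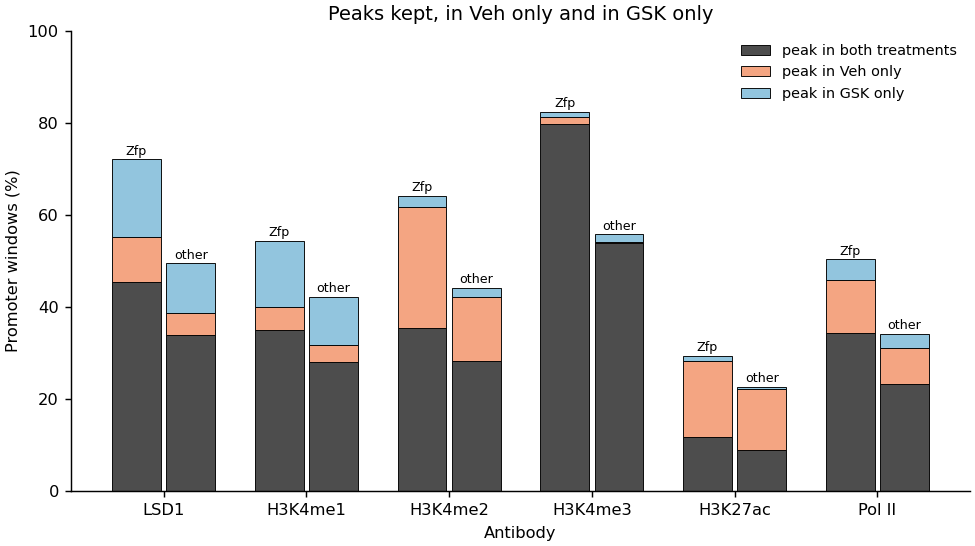
Share of promoter windows, in percent, with a peak in both treatments, in Veh only or in GSK only, as stacked bars for Zfp windows (n = 463) and other protein-coding windows (n = 25702) and each of the 6 antibodies. H3K4me2 had the largest Veh-only share, 26.3% of Zfp windows against 13.8% of the others, and LSD1 the largest GSK-only share, 16.8% against 10.8%.

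Since H3K4me3 was so frequent at Zfp promoters, the marks were also compared among windows that had it in both treatments, 370 Zfp windows and 13850 others. The higher LSD1 share of Zfp promoters was not seen there, at 67.6% in Veh and 74.9% in GSK against 68.3% and 78.2%. The Veh difference was −0.772 points (−5.76 to 3.86) and the GSK difference −3.34 points (−8.05 to 0.870). H3K4me2 was at 75.4% of Zfp and 72.8% of other windows in Veh, a difference of 2.64 points (−2.05 to 6.82), and at 46.2% and 52.6% in GSK, a difference of −6.38 points (−11.5 to −1.22). H3K27ac was less frequent at Zfp windows in Veh, at 35.1% against 41.0% (−5.88 points, −10.6 to −0.822). Pol II was at 57.3% of Zfp and 56.8% of other windows in Veh and at 47.8% and 48.1% in GSK. The lower kept shares of LSD1 and H3K4me2 were still seen, with differences of −6.88 points (−12.1 to −2.61) and −9.62 points (−15.5 to −3.91). The Zfp windows with H3K4me3 in both had a lower CpG ratio than the others, a median of 0.536 against 0.639 observed over expected CpG.

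The CpG ratio over the whole window sorted the Zfp promoters by their marks. Under a ratio of 0.4, 56.6% of 143 Zfp windows had H3K4me3 in Veh, against 13.4% of other windows in that range, a difference of 43.2 points (35.0 to 51.1). In the same range LSD1 was at 31.5% against 6.95% and H3K4me2 at 38.5% against 9.37%. Between 0.4 and 0.6 (186 Zfp windows) the H3K4me3 shares were 90.3% and 73.4%, and at 0.6 or more (134 windows) they were 95.5% and 89.4%. Thus the excess of H3K4me3 at Zfp promoters was largest where CpGs were sparse. The kept share of LSD1 was 48.9%, 80.0% and 97.3% in the low, middle and high range for Zfp promoters, and 53.7%, 82.3% and 93.7% for the others, and the interval of the difference included 0 in each range (−4.82, −19.2 to 9.74, −2.28, −11.3 to 4.55, and 3.60, −1.38 to 5.48 points). The kept share of H3K4me2 was 40.0%, 64.3% and 58.1%, against 49.9%, 66.2% and 70.4%. Its differences were −9.95 points (−22.2 to 3.60), −1.96 points (−10.8 to 6.02) and −12.3 points (−22.0 to −3.29), the last of which was for the high range. Windows with LSD1 in Veh only had a median ratio of 0.401, those with it in GSK only 0.495, and those with it in both 0.612.

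Genes with and without a KRAB box differed in how often LSD1 was kept under GSK. H3K4me3 was at 81.6% and 81.3% of their windows in Veh. LSD1 was at 103 of the 179 KRAB windows in each treatment (57.5%), with 76 in both, 27 in Veh only and 27 in GSK only, a net change of 0 points (−7.77 to 7.77). At the 284 windows without a KRAB box LSD1 went from 153 to 185 (53.9% and 65.1%), with 134 in both, 19 in Veh only and 51 in GSK only, a net change of 11.3 points (5.65 to 15.7). The kept share was 73.8% (64.5 to 81.3) with a KRAB box and 87.6% (81.4 to 91.9) without, a difference of −13.8 points (−24.0 to −4.07). A wider KRAB pattern that allows tyrosine in its first place, added after the data were seen, took in 183 genes and gave −22.6 points (−32.2 to −13.1). With peaks of a −log10 q of at least 5 the difference was −0.609 points (−19.8 to 16.6). KRAB windows were also poorer in CpG, with a median ratio of 0.439 against 0.556. Within the CpG ranges the kept shares of LSD1 were 56.0% and 40.0% (low), 75% and 87.5% (middle) and 94.4% and 97.8% (high) with and without a KRAB box, and the interval of each difference included 0 (16, −12.5 to 41.1, −12.5, −26.6 to 3.94, and −3.41, −23.7 to 3.63 points). H3K27ac was kept at 12 of 46 KRAB windows (26.1%, 15.6 to 40.3) and at 42 of 85 windows without a KRAB box (49.4%, 39.0 to 59.8), a difference of −23.3 points (−38.1 to −5.76). Within the CpG ranges the H3K27ac difference was −48.5 points (−78.6 to 6.09, low), −17.5 points (−40.2 to 7.66, middle) and −3.45 points (−32.5 to 25.8, high). Each of these intervals included 0. H3K4me2 was kept at 56.9% and 57.6%. Pol II went from 77 to 75 windows of KRAB genes and from 135 to 105 windows of the others. H3K4me3 peaks had a median Veh fold of 7.55 at KRAB windows and 6.08 at the others.

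**Figure D3:**
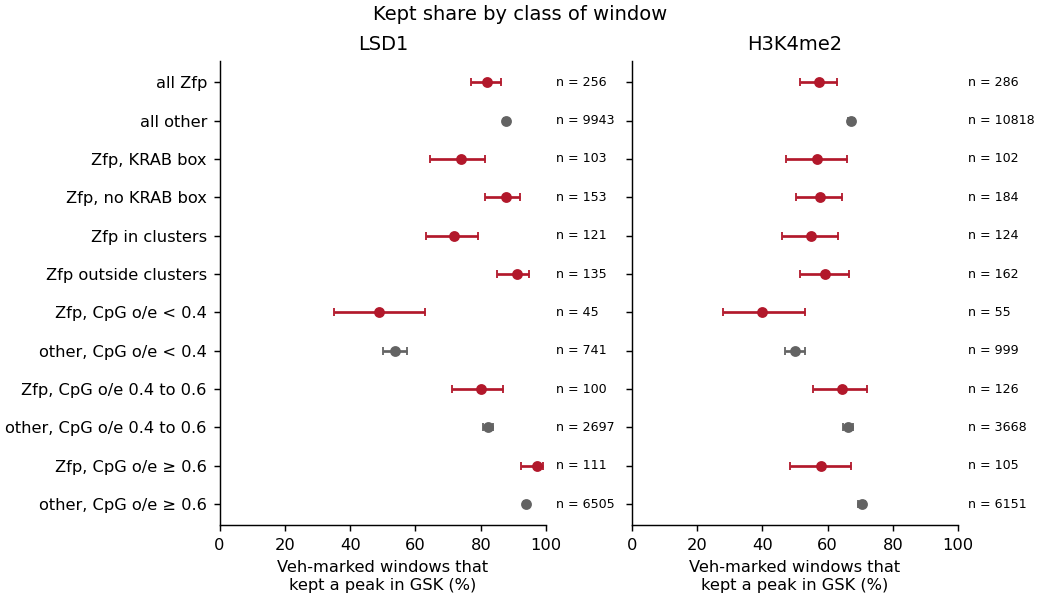
Share of Veh-marked windows that kept a peak in GSK, in percent with Wilson 95% bars, for LSD1 and H3K4me2, with the number of Veh-marked windows given for each class. LSD1 was kept at 73.8% of KRAB and 87.6% of other Zfp windows and at 71.9% and 91.1% of windows inside and outside gene clusters, and at 48.9% of windows in the low and 97.3% in the high CpG range.

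Taking runs of 4 or more Zfp genes whose neighbouring TSSs lay within 500 kb, 186 genes with 214 windows fell into 22 clusters and 179 genes with 249 windows lay outside. Of the 155 KRAB genes, 119 were in clusters. H3K4me3 was found at 179 of the clustered windows in each treatment (83.6%) and at 198 and 196 of those outside (79.5% in Veh). LSD1 was at 121 clustered windows in Veh and 118 in GSK, with 34 in Veh only and 31 in GSK only. Outside clusters it was at 135 and 170 windows, with 12 in Veh only and 47 in GSK only. The net change was −1.40 points (−8.49 to 5.84) inside and 14.1 points (8.40 to 18.0) outside. The kept share was 71.9% (63.3 to 79.1) inside and 91.1% (85.1 to 94.8) outside, a difference of −19.2 points (−28.6 to −9.80). It was −22.0 points (−31.9 to −12.3) among windows with 90% or more unique 50-mers and −4.57 points (−22.4 to 13.0) with peaks of a −log10 q of at least 5. Position and KRAB box overlapped, so LSD1 was also counted by both. It was kept at 70.7% of KRAB and 74.4% of other windows inside clusters, and at 85.7% and 92.1% outside. Clustered windows had a median CpG ratio of 0.437, against 0.568 outside, and the part of CpG content in the difference was not tested.

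Clusters differed widely in their marks. The largest, on chromosome 17 (chr17:21008941-23599487), held 23 genes, 20 of them KRAB genes, with 28 windows from Zfp160 to Zfp13. H3K4me3 was at 27 of the 28 windows in each treatment and LSD1 at 20 in each, while H3K27ac was at 13 in Veh and 2 in GSK and H3K4me1 at 12 and 19. The cluster on chromosome 13 (chr13:67061170-67813816; 19 genes, 22 windows, Zfp712 to Zfp273) had H3K4me3 at 20 windows in each treatment, and H3K4me2 at 17 in Veh and 8 in GSK. On chromosome 7, 15 genes from Zfp84 to Zfp146 (chr7:29768552-30169741) had H3K4me3 at all 17 windows in both treatments, Pol II at 11 in Veh and 5 in GSK, and H3K4me1 at 7 and 13. A smaller cluster on chromosome 8 (chr8:69209046-69774911), which holds Zfp868 and Zfp869, had H3K4me2 at all 7 windows in Veh and at 1 in GSK. On chromosome 10, the 4 genes between Zfp433 and Zfp938 (chr10:81704825-82241280) had LSD1 at 4 of 6 windows in Veh and at 0 in GSK.

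In contrast, 2 neighbouring clusters at the end of chromosome 4 were almost bare. From Zfp990 to Zfp981 (chr4:145510759-146514920) 7 of the 8 windows were in no list, and the remaining peak was Pol II at Zfp600 in GSK (fold 3.40). From Zfp978 to Zfp933 (chr4:147124882-147848418) 6 of the 11 windows were in no list and 3 had H3K4me3. The median share of 50-mers that occurred once in the genome was 36.3% and 60.8% in these clusters, and reads were kept only where they mapped uniquely, so absent binding and unmappable sequence cannot be told apart there. The cluster from Zfp970 to Zfp931 on chromosome 2, with a median of 22.6%, had H3K4me3 at 4 of 4 windows in both treatments. Over all Zfp promoters, 83 windows (17.9%) had under 90% unique 50-mers, against 10.2% of the others. A further 6 windows in no list lay in the cluster of 14 genes from Zfp180 to Zfp526 (chr7:24081897-25221425), where the median was 98.3% and H3K4me3 was at 10 of 17 windows in Veh and 11 in GSK.

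**Figure D4:**
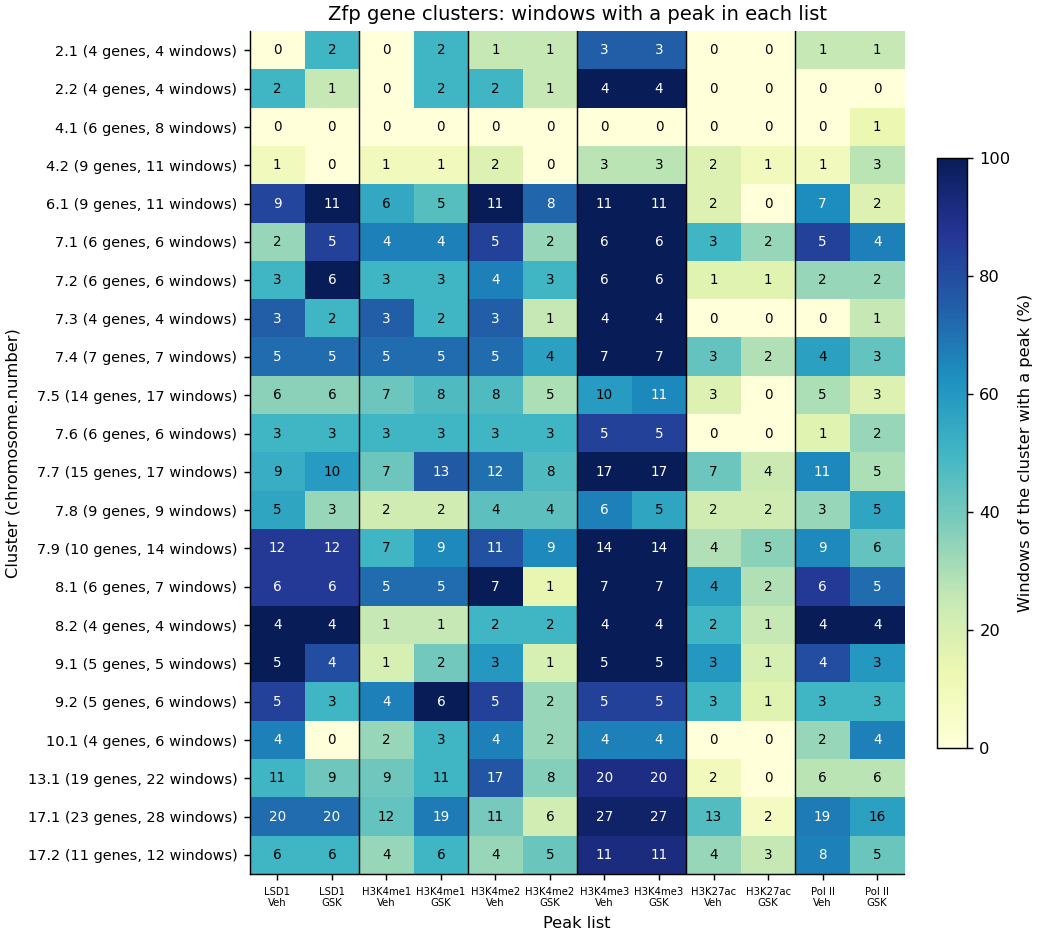
Heat map of the 22 Zfp gene clusters (rows, named by chromosome and order) against the 12 lists (columns), where colour gives the percent of windows with a peak and the number in each cell the count of windows. H3K4me3 fills most clusters in both treatments, and the first cluster of chromosome 4 holds a single peak.

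By chromosome, Zfp windows were most numerous on chromosome 7 (105 windows of 90 genes), followed by 17 (51), 13 (42), 4 (34) and 8 (33), out of 20 chromosomes with a Zfp gene. On chromosome 7 LSD1 was at 55.2% of Zfp windows in Veh (58) and 65.7% in GSK (69), against 27.6% and 33.1% of the other promoters there. H3K4me2 was at 64.8% (68) and 41.9% (44), against 34.0% and 23.7%. On chromosome 13 LSD1 was at 52.4% (22) and 47.6% (20), against 45.6% and 51.7%. Zfp windows of chromosome 4 had less LSD1 than other promoters there, at 5.88% (2) and 26.5% (9) against 41.7% and 49.6%.

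Between 250 bases before and 50 bases after the TSS, CCGGAAG was present in 103 Zfp windows (22.2%) and 11.3% of other windows, a difference of 11 points (7.39 to 15). Among windows with H3K4me3 in both treatments it was 4.92 points (0.816 to 9.56). CCAAT was in 207 Zfp windows (44.7%) against 37.5%, a difference of 7.19 points (2.69 to 11.8), and was more frequent with than without a KRAB box, by 11.8 points (2.51 to 20.9). All 12 windows of the cluster from Zfp871 to Zfp414 on chromosome 17 held it, and none of the 6 windows from Zfp787 to Zfp28 on chromosome 7. GGGCGGG was in 157 Zfp windows (33.9%) against 35.1%, and among windows with H3K4me3 in both it was less frequent at Zfp promoters, with a difference of −14.2 points (−19.0 to −9.05). CGCCATNTT was in 5.62% against 3.15%, TGCGCATGC in 3.89% against 1.86%, TGACGTCA in 3.67% against 2.36% and CTCGCGAGA in 0.648% against 0.942%. These matches describe letters and were not tested for binding.

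Marks also differed between Zfp windows with and without a motif. With GGGCGGG, LSD1 was at 67.5% of windows in Veh and 79.0% in GSK, and without it at 49% and 53.6%. The 26 windows with CGCCATNTT had Pol II at 73.1% in Veh and 61.5% in GSK, against 44.2% and 37.5% of those without. H3K4me3 was at all 17 windows with TGACGTCA in both treatments, and their H3K4me2 count went from 14 to 3. Windows with CTACAATTC were the least marked by Pol II, at 1 of 13 in each treatment, and had H3K4me3 at 7 windows in Veh and 8 in GSK. In the chromosome 7 cluster the window of Zfp180 with the element was in 9 lists, that of Zfp93 in 7, that of Zfp108 in 2 and that of Zfp114 in 0.

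The strength of the peaks was compared by the percentile of a peak's fold within its own list. H3K4me3 peaks at Zfp promoters were narrower and higher than elsewhere, with a median width of 1038 bp against 1270 bp, a median fold of 6.88 against 5.91 and a median percentile of 71.5 against 54.1 in Veh (72.4 against 55.3 in GSK). The gap was largest at KRAB windows, with a median width of 927 bp and percentile of 80.7 in Veh. Zfp windows without a KRAB box lay near other promoters, with a width of 1242 bp, a fold of 6.08 and a percentile of 57.7 in Veh. The LSD1 percentile was 59.2 against 57.3 in Veh, and that of Pol II 74.9 against 76.1. H3K27ac had 67.2 against 60.5 in Veh and 70.7 against 58.2 in GSK. The median LSD1 summit lay 107 bp downstream of the TSS, and 49.6% of summits lay within 250 bp, against 97 bp and 48.2% elsewhere. Pol II summits were closer, with a median of 42.5 bp and 75.5% within 250 bp, against 70.6%. Where a window had a peak in both treatments, the median LSD1 fold was 4.58 in Veh and 5.27 in GSK, and 140 of 210 windows had a higher percentile in GSK. Other promoters were alike, with LSD1 folds of 4.54 and 5.25 and a higher percentile in GSK at 5646 of 8712 windows. The median fold of Pol II was 5.62 in Veh and 4.50 in GSK, with a median log2 difference of −0.25, against −0.31 elsewhere. For H3K4me3 the medians were 6.92 and 7.06, against 5.92 and 6.08 elsewhere. Peaks seen in Veh only were weaker in Veh than those kept, with median folds of 4.0 against 4.58 for LSD1, 4.55 against 4.97 for H3K4me2, 4.08 against 4.59 for H3K27ac and 4.17 against 5.62 for Pol II. The same held at other promoters, with 3.93 against 4.54 for LSD1 and 4.29 against 4.88 for H3K4me2. There H3K27ac had 3.98 against 4.28 and Pol II 4.36 against 5.71.

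**Figure D5:**
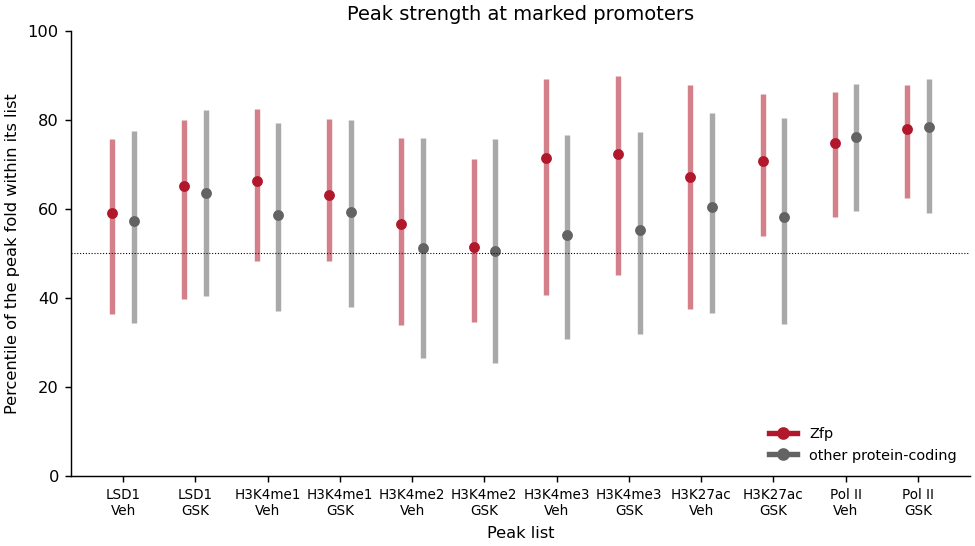
Percentile of each peak's fold within its own list, as the median (point) and the quartiles (bar), for peaks at Zfp windows and at other protein-coding windows in the 12 lists. The largest gap is that of H3K4me3, with medians of 71.5 and 54.1 in Veh and 72.4 and 55.3 in GSK.

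A promoter of another gene faced 23 Zfp windows head to head within 1 kb (4.97%, against 8.16% of other windows), and at 7 of these the partner was itself a Zfp gene, as in the pairs of Zfp942 with Zfp943 and of Zfp668 with Zfp646. Such a window also covers the TSS of the partner, so its peaks cannot be assigned to the Zfp gene alone. In a pair of Zfp genes the same peak can count for both windows, so the 23 windows are not independent. All 23 had H3K4me3 in both treatments, and facing windows of other genes had it at 95% in Veh. Pol II was at 21 of the 23 in Veh and 16 in GSK, LSD1 at 14 and 21, and H3K27ac at 20 and 6. As shares these were 91.3% and 69.6% for Pol II, 60.9% and 91.3% for LSD1, and 87.0% and 26.1% for H3K27ac. The 2096 facing windows of other genes had Pol II at 74.1% and 60.3%, LSD1 at 69.6% and 78.8%, and H3K27ac at 60.2% and 24.3%. In Veh, H3K27ac was at 25.2% of the 440 Zfp windows with no such partner, a difference of 61.7 points (42.2 to 71.1). The Veh difference from facing windows of other genes was 26.8 points (7.60 to 35.6) for H3K27ac. H3K4me2 and H3K4me1 were less frequent, at 11 and 4 of the 23 facing Zfp windows in Veh. The differences from facing windows of other genes were −19.7 points (−38.4 to −0.413) for H3K4me2 and −15.6 points (−26.2 to 4.27) for H3K4me1. From Zfp windows with no such partner they were −14.7 points (−33.8 to 5.08) and −23.7 points (−35.2 to −3.49).

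Among Zfp genes of known role, the KRAB gene Zfp809, which silences retroviral elements, had Pol II at 10.6 in Veh and 8.42 in GSK, H3K4me3 at 6.66 and 6.42, and H3K27ac at 7.18, LSD1 at 3.99 and H3K4me2 at 4.28 in Veh only. Zfp445, which acts with Zfp57 on imprinted regions, had LSD1 at 6.22 and 5.21, H3K4me3 at 8.27 and 7.82 and Pol II at 4.85 and 5.46, and no other mark. Zfp335, which is needed for T cell maturation, had LSD1 at 8.21 and 8.46, H3K27ac at 7.21 and 5.91 and Pol II at 4.50 and 3.75. Of these 3 genes, Zfp445 and Zfp335 had LSD1 in both lists and Zfp809 in Veh only. Zfp410, which activates Chd4, had LSD1 at 3.90 and 5.38, Pol II at 5.63 and 3.76 and H3K27ac at 3.77 in Veh only. Zfp217, a partner of the LSD1 and CoREST complex, had LSD1 at 4.05 and 4.63 and H3K4me3 at 3.53 and 3.36 at its CpG-rich window, and no peak at the other window. Zfp318 had LSD1 at 5.46 and 7.09, Zfp281 had LSD1 at 5.04 and 4.57 and no Pol II, and Zfp91 had LSD1 at 5.30 and 3.81 at a promoter that faces Lpxn. Zfp143, a factor that binds many promoters, had Pol II at 7.40 and 6.95, LSD1 at 3.87 and 4.30 and H3K27ac at 4.35 and 5.06.

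Some promoters had Pol II with few marks. Zfp36, which encodes the RNA-binding protein tristetraprolin and no C2H2 finger, had Pol II at 10.5 in Veh and 7.57 in GSK with H3K4me3 at 3.61 and 3.34 and nothing else. Zfp207, a spindle protein gene, had Pol II at 7.33 and 6.02, H3K4me3 at 4.58 and 4.52 and H3K27ac at 5.11 in Veh only. Zfp148, with Pol II at 7.87 and 4.61, had more marks, among them LSD1 at 4.99 and 4.08 and the Veh-only H3K4me1 given above. Others had LSD1 and H3K4 methylation without Pol II. Zfp521 had LSD1 at 4.18 and 4.98 and H3K4me3 at 5.34 and 4.90, and the CpG-rich window of its relative Zfp423 had H3K4me3 at 5.15 and 5.49 and LSD1 at 3.59 in GSK only. Zfp516 had LSD1 at 3.42 and 2.84 and H3K4me3 at 2.96 in each at its downstream window. Zfp42, a marker of pluripotent cells, and Zfp462 were in no list.

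For each cluster the gene in the most lists was also chosen, and only some of these genes, each in 10 or 11 lists, are described here. The genes chosen for the other clusters were Zfp873, Zfp459, Zfp120, Zfp971, Zfp984, Zfp775, Zfp28, Zfp954, Zfp60, Zfp266 and Zfp600. Zfp600, from the barest cluster, had only its Pol II peak in GSK. Zfp869 (11 lists) had LSD1 at 4.80 and 6.76, H3K4me1 at 3.96 and 3.73, H3K4me3 at 9.38 and 9.03 and H3K4me2 at 4.36 in Veh only. Zfp414, Zfp653, Zfp658, Zfp688 and Zfp784 were also in 11 lists, and the missing list was GSK LSD1 for Zfp414, GSK H3K4me2 for Zfp653 and Zfp784, and Veh H3K27ac for Zfp658 and Zfp688. Zfp110, Zfp13, Zfp74, Zfp94 and Zfp961 were in 10 lists each. Zfp74 had H3K27ac at 4.81 and 6.90, LSD1 at 6.66 and 8.40 and H3K4me2 at 4.49 in GSK only. Zfp961 had LSD1 at 6.65 and 4.35 and H3K4me2 at 3.99 and H3K27ac at 3.71 in Veh only.

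The partners through which KRAB proteins act were counted by gene. All 17 such genes had H3K4me3 in both treatments. LSD1 was at 10 in Veh and 16 in GSK, the 6 genes in GSK only being Setdb1, Cbx3, Cbx5, Atrx, Daxx and Dnmt1. Beside this, non-Zfp windows with H3K4me3 in both treatments had LSD1 at 68.3% in Veh, at 78.2% in GSK and in GSK only at 17.2%. These shares are counted per window, not per gene. Among the 17 genes H3K4me2 was at 12 and 5, H3K4me1 at 5 and 9, H3K27ac at 9 and 8 and Pol II at 14 and 13. At the same non-Zfp windows the net change was −20.2 points for H3K4me2, 10.1 for H3K4me1, −23.9 for H3K27ac and −8.64 for Pol II. Trim28 had LSD1, H3K4me1, H3K4me3 and Pol II in both treatments, H3K4me2 in Veh only and H3K27ac in GSK only. Chd4 was the gene without LSD1 in either list.

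The 30 Zfp genes with under 3 C2H2 fingers, 11 of them with none, had 34 windows. H3K4me3 was in both treatments at 27 of these and in GSK only at 1. LSD1 was in both at 18, in Veh only at 1 (2.94%) and in GSK only at 5 (14.7%), and H3K4me2 was in both at 15 and in Veh only at 8 (23.5%). Over all 463 Zfp windows, H3K4me3 was in both at 79.9% and in GSK only at 1.08%. LSD1 was there in both at 45.4%, in Veh only at 9.94% and in GSK only at 16.8%. H3K4me2 was in both at 164 of the 463 and in Veh only at 26.3%. Other promoters had H3K4me3 in both at 53.9% and LSD1 in both at 33.9%.

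Genes that encode 3 or more C2H2 fingers under other names, 300 genes with 400 windows, are the nearest group to the Zfp genes. They had H3K4me3 at 69.0% in Veh and 71.0% in GSK, LSD1 at 41.5% and 53.8%, H3K4me2 at 51.5% and 38.8%, H3K27ac at 21.5% and 10.0% and Pol II at 33.5% and 26.0%. The Zfp share minus theirs was 2.21 points (−4.31 to 8.67) for Veh H3K4me1 and 4.21 points (−2.46 to 10.8) for GSK H3K4me1. It was −0.953 points (−7.44 to 5.51) for GSK H3K4me2 and 2.74 points (−1.57 to 6.96) for GSK H3K27ac. These intervals included 0, and those of the other lists lay above 0. The kept share of this group was 89.2% for LSD1, which the Zfp share missed by −7.13 points (−13.6 to −0.0783), and 69.9% for H3K4me2, where the difference was −12.6 points (−20.8 to −3.92). The 60 windows of 41 Zbtb genes, which pair fingers with a BTB domain, had LSD1 at 29 in Veh and 39 in GSK, H3K4me3 at 47 in each and H3K27ac at 17 and 4. The 20 windows of 16 Zscan genes had LSD1 at 11 and 13 and H3K4me3 at 13 and 14.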

How the data were processed

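Chromatin from CD8+ T cells was profiled with 6 antibodies in 2 treatments. Per the labels and the methods of the study, the authors kept reads that Bowtie2 2.3.5.1 placed at a single site of mm10, removed PCR duplicates with Samtools 1.9, made coverage tracks with bedtools 2.27.1 and called peaks against input with MACS2 2.1.2. The deposited lists give for each peak or region its fold enrichment over the background estimated by the caller, its −log10 p and −log10 q, and a score. The p-value cutoff was 0.001 for LSD1 and Pol II, and the histone lists hold broad regions. Of 16 samples, 12 had a list, and the 4 inputs were not analysed here. Libraries were subsampled to equal read numbers for comparing signals, and whether the peak calls used those reads is not given in the sources used here. A supplement of the study lists read pairs per library, which were not used in any computation here.

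A window had a peak where at least 1 bp of it was covered. Its fold is that of its peak with the highest −log10 p. Windows, CpG ratio, 50-mer uniqueness and motifs were computed from the RefSeq genome of the same build with python 3.11.15, numpy 2.4.6, pandas 2.3.3, numba 0.67.0 and matplotlib 3.10.9. C2H2 fingers and KRAB boxes were found by pattern in translated coding sequences. The KRAB pattern misses some boxes, among them those of Zfp57 and Zfp445. The counting and the intervals were tested on simulated data. The members and gene lists were chosen with earlier results of these data known. Genes named are most, but not all, of those chosen for a known role, the 2 leading Veh-only and GSK-only genes by −log10 p and the 2 highest Veh folds of each antibody, and the gene in the most lists of each cluster. Genes of small classes, of printed sequences and of head-to-head pairs were named after their values were seen. A marker gene of the list is not reported here.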

Additional observations from a re-analysis of the deposited data

How the results depend on the processing

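Of 127 pairs of a result and an alternative setting, 121 kept the sign of the result. That count includes the single kept shares of Zfp promoters, which cannot be negative, so their sign was fixed in advance. Among pairs of the single kept shares, 29 stayed within the range of the result and 7 moved outside it. Among pairs of the net changes and differences, 75 stayed within the range, 14 moved outside it and 2 took the opposite sign. With both lists of an antibody cut to the shorter one, the net change of Zfp windows was −0.864 points for H3K27ac, −2.16 for H3K4me2 and −0.216 for H3K4me1, the last with the opposite sign, and the Veh difference from other promoters was 11.1 points for H3K4me2. With peaks of a −log10 q of at least 5, the net changes were −11.2 points for H3K27ac, −19.7 for H3K4me2, 14.5 for LSD1 and −9.94 for Pol II. The Veh differences from other promoters were then −0.177 points for H3K4me1, with the opposite sign, 11.3 for H3K4me2, 3.91 for LSD1 and 7.93 for Pol II. The differences in kept LSD1 were then −0.609 points by KRAB box and −4.57 by cluster. Windows of 500 bp on either side gave a Veh difference of 0.0669 points for H3K4me1, and windows with 90% or more unique 50-mers gave a net change of −26.1 points for H3K4me2. The settings on unique 50-mers, the wider KRAB pattern and all settings of the 3 kept differences were chosen after seeing the data. No paired analysis was possible because each group was 1 library. Single libraries and lists of unequal length limit every difference between treatments, and the cause of these differences was not tested.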
